A study of Arabidopsis thaliana with 6 samples.

Results

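The genes described here are 10 chaperone genes of the Arabidopsis cytosol, taken by identifier from the count tables. They comprise 7 cytosolic HSP70 genes together with HSP90.1, HSP101 and HOP3, and all 10 were present among the 33323 genes of the tables. Transcripts were sequenced from pieces of Arabidopsis thaliana style through which pollen tubes had grown. There were 3 libraries of the genotype paps1-1 in the Col-0 background and 3 libraries of Col-0 wild type (WT). PAPS1 codes for one of the poly(A) polymerases of the nucleus, which tail new transcripts, and paps1-1 is an allele of this gene. The labels do not state whether the pollen tubes, the style or both carried paps1-1. Only the WT labels speak of biological replicates, and no source used here ties the paps1-1 libraries to separate plants. The p-values below therefore rest on the spread between the libraries as they are, and for paps1-1 that spread may be technical.

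HSP70 proteins bind exposed hydrophobic stretches of unfolded proteins and release them in cycles of ATP hydrolysis, which J-domain proteins start and nucleotide exchange factors reset. HOP proteins bridge HSP70 and HSP90, so that a client protein can pass from one to the other, and HSP101 is a hexameric disaggregase that pulls proteins out of aggregates together with HSP70. Heat shock factors drive many of these genes by binding heat shock elements, which are inverted repeats of GAA and TTC. HSC70-1 is known as a constitutive gene, while HSP90.1, HSP101, HOP3 and Hsp70b are known as genes strongly induced by heat.

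The heat shock elements before these genes are shown first, because most of the members share them although their levels differ. Windows of 500 bases before the annotated start codon were searched on both strands in RefSeq TAIR10.1. A stretch of 2 units was GAANNTTC or TTCNNGAA, and a stretch of 3 units was GAANNTTCNNGAA or TTCNNGAANNTTC, so that every 3-unit stretch contains overlapping 2-unit stretches. At least one 2-unit stretch lay before 9 of the 10 genes, against 33.8% of 26711 protein-coding genes searched in the same way. A 3-unit stretch lay before 6 of the 10 genes, against 1.2% of the same genes. The 3-unit stretches are printed 5′ to 3′ on the strand of the gene, with the units in capitals.
HSC70-1, chr5:556554-556582, minus strand: caaccatcGAACATTCTCGAAacatttta
Hsp70-2, chr5:552686-552714, minus strand: taattacaGAACATTCTGGAAactcaagt
AT3G09440, upstream copy, chr3:2905894-2905922, minus strand: atcgaaccGAACATTCTCGAAccttttta
AT3G09440, downstream copy, chr3:2905765-2905793, minus strand: gagccatcGAACCTTCTCGAAactcgagt
AT3G12580, chr3:3993846-3993874, minus strand: ttactcgtGAACGTTCTCGAAagctcttt
HSP90.1, chr5:21352254-21352282, plus strand: aacgaaaaGAACTTTCTGGAAttcgtttg
HOP3, chr4:7341319-7341347, minus strand: aaaaattcGAAATTTCGAGAActctcttg
Hsp70b and HSP101 had a single 2-unit stretch each, and these are printed for comparison because both genes are known as heat-induced.
Hsp70b, chr1:5504458-5504487, minus strand: cacgaccttttTTCTCGAAatgtctcgttc
HSP101, chr1:27940322-27940351, minus strand: ataaaataagcGAAAATTCcacgtgacatc
The stretch of HOP3 began 100 bases before the start codon and that of HSP90.1 began 295 bases before it. AT3G09440 was the one member with a pair of 3-unit stretches, beginning 282 and 153 bases before its start codon. HSP70T-1 had a 2-unit stretch only, and in the window of HSP70T-2 these letters were not found. Except for those of HSP90.1 and HSP70T-1, the stretches lie inside annotated transcripts, upstream of the coding sequence. The annotated models of HSP90.1 and HSP70T-1 hold coding bases only, so no stretch before their start codons could lie inside a transcript. These matches describe the letters in the window and do not show that a factor was bound.

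The libraries held between 4541233 and 21031017 reads in genes, the lowest number being that of paps1-1 replicate 2. In that library 74.6% of all reads mapped to several places and 10.5% of gene reads came from AT3G41768, a gene of 18S ribosomal RNA, against 7.28% to 28.0% and 0.110% to 0.732% in the other 5 libraries. All 18 listed pollen tube markers were tested, and their summed level ranged from 48515 to 59813 CPM (gene reads scaled to library size, with TMM factors) in paps1-1 and from 42756 to 98752 CPM in WT, with WT replicate 3 the highest. Of 8 listed style and transmitting tract markers, 4 were tested, HEC1, HEC2 and CRC had no read in any library, and the list summed to between 30.4 and 35.7 CPM in paps1-1 and between 21.8 and 33.8 CPM in WT. Sperm cell markers summed to between 94.6 and 133 CPM in paps1-1 and between 49.5 and 88.9 CPM in WT. Photosynthetic markers summed to 43.4, 46.2 and 259 CPM in paps1-1 replicates 1 to 3 and to between 49.4 and 69.8 CPM in WT. The high sum of paps1-1 replicate 3 came from RBCS1A, at 254 CPM against 39.0 and 42.1 CPM in paps1-1 replicates 1 and 2. LHCB2.1 had 3.69 CPM there, against 3.92 and 3.62 CPM. The transcript of PAPS1 itself had a log2 fold change of -0.49 (SE 0.28) with adjusted p = 0.609 in edgeR's quasi-likelihood test; since the allele is not known from the labels to remove the transcript, this value does not check the labels. Because paps1-1 replicate 2 stood apart in depth and ribosomal RNA, and WT replicate 3 in pollen tube markers, chaperone fold changes are also given for the 4 libraries left without both. These 4 libraries still hold paps1-1 replicate 3 with its high RBCS1A level.

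Taken over all genes, none of the chaperone genes passed the test between paps1-1 and WT. HOP3 had the smallest p-value and was the only one of them whose libraries did not overlap between genotypes, averaging 66.2 ± 30.8 CPM in paps1-1 and 170.5 ± 77.3 CPM in WT (SD, n = 3 each). Libraries of the genotypes did not overlap, in either direction, for 14.7% of all genes tested, so 1 such gene among 9 does not set these genes apart. Of the 10 genes, 9 had enough reads to be tested, 2 of these had a positive and 7 a negative log2 fold change, and their median was -0.44, against 0.03 over the 18317 genes tested. Negative values made up 46.5% of all genes tested. In the 4 libraries left without paps1-1 replicate 2 and WT replicate 3, 5 of the 9 were positive and 4 negative. Their median was 0.22, against -0.01 over all genes, and again none passed edgeR's test. In that fit 2 of the 9 had an unadjusted p under 0.05, against 1529 of 18491 genes. They went opposite ways, with log2 fold changes of 0.86 for Hsp70b and -0.62 for HOP3. The test was edgeR's quasi-likelihood test with Benjamini-Hochberg adjustment over all genes, in which 429 genes or 2.34% were called at an adjusted p under 0.05, with 1.16% of genes higher and 1.18% lower in paps1-1. At an unadjusted p under 0.05, 1 of the 9 was lower, against 6.05% of all genes. DESeq2 called 1 of the 9, against 3.38% of all genes, and limma-voom 0, against 387 of 18317 genes. In these bulk samples, fewer cells of a type and less RNA per cell cannot be told apart.

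**Figure D1:**
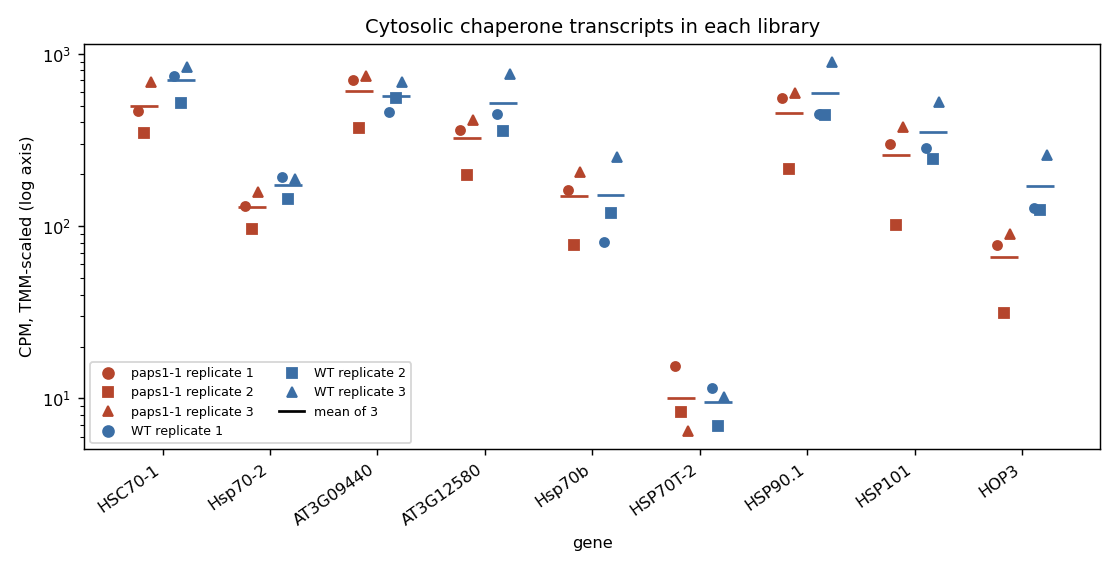
Level of the 9 tested chaperone genes in CPM on a log axis, with paps1-1 libraries in red on the left and WT libraries in blue on the right of each gene, and a line for the mean of 3. HOP3 is the one gene in which all 3 paps1-1 libraries, at 31.3 to 89.4 CPM, lie below all 3 WT libraries, at 125 to 260 CPM. Over all genes tested, 7.82% were separated in this direction and 14.7% in either.

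The constitutive HSP70 genes HSC70-1 (AT5G02500) and Hsp70-2 (AT5G02490) are neighbours in the genome with 86.9% identical coding bases, and both fold newly made proteins in the unstressed cell. HSC70-1 had 467, 346 and 685 CPM in paps1-1 replicates 1 to 3 and 744, 516 and 841 CPM in WT replicates 1 to 3. Hsp70-2 had 130.5, 96.4 and 158 CPM in paps1-1 and 192, 143 and 187 CPM in WT. For both genes paps1-1 replicate 2 was the lowest library, and the genotypes overlapped through paps1-1 replicate 3, which exceeded WT replicate 2. The log2 fold change was -0.49 (SE 0.34) for HSC70-1 and -0.44 (SE 0.28) for Hsp70-2, with edgeR adjusted p = 0.729 and adjusted p = 0.690. In the 4 libraries the values were -0.16 (SE 0.35) for HSC70-1 and -0.24 (SE 0.28) for Hsp70-2, and without paps1-1 replicate 2 alone they were -0.31 and -0.29. Without paps1-1 replicate 3 the value of HSC70-1 was -0.79. Within libraries the pair kept a narrow ratio, with 27.9, 27.8 and 23.0 Hsp70-2 reads per 100 HSC70-1 reads in paps1-1 and 25.8, 27.6 and 22.2 in WT. The mean ratio was 26.3 ± 2.80 in paps1-1 and 25.2 ± 2.75 in WT (SD, n = 3 each; two-sided exact permutation p = 0.5).

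AT3G09440 and AT3G12580 are cytosolic HSP70 genes on chromosome 3. AT3G09440 had 704, 371 and 744 CPM in paps1-1 and 458, 554 and 687 CPM in WT. AT3G12580 had 359, 197 and 410.4 CPM in paps1-1 and 446, 355 and 761 CPM in WT. The genotypes overlapped for both genes, yet the order of the pair was not alike: the top library was paps1-1 replicate 3 for AT3G09440 and WT replicate 3 for AT3G12580. The log2 fold change was 0.10 (SE 0.34; edgeR adjusted p = 0.972) for AT3G09440 and -0.69 (SE 0.36; edgeR adjusted p = 0.560) for AT3G12580. In the 4 libraries the value was 0.49 (SE 0.31) for AT3G09440 and -0.08 (SE 0.30) for AT3G12580, which stood at -0.34 without WT replicate 3 alone and at -0.46 without paps1-1 replicate 2 alone. There were 51.0, 53.2 and 55.2 AT3G12580 reads per 100 AT3G09440 reads in paps1-1 and 97.3, 64.0 and 111 in WT. All paps1-1 ratios were below all WT ratios, with means of 53.1 ± 2.13 in paps1-1 and 90.68 ± 24.0 in WT (SD, n = 3 each; two-sided exact permutation p = 0.1, the smallest that 3 against 3 libraries allow). Ratios that did not overlap between genotypes were found for 12 of the 36 pairs of tested chaperone genes. Over all pairs of genes with reads in every library the share was 15.6%.

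Hsp70b (AT1G16030) is a cytosolic HSP70 that is known to be induced by heat. It had 162, 77.2 and 206 CPM in paps1-1 and 81.0, 119 and 252 CPM in WT. Each genotype spread widely, with paps1-1 replicate 2 and WT replicate 1 at the bottom and WT replicate 3 at the top, and the genotypes overlapped over most of their range. The log2 fold change was -0.02 (SE 0.41; edgeR adjusted p = 0.996). It became 0.86 (SE 0.30; edgeR adjusted p = 0.371) in the 4 libraries left without paps1-1 replicate 2 and WT replicate 3. Hsp70b took 8.83%, 7.04% and 9.33% of cytosolic HSP70 reads in paps1-1 and 4.19%, 7.03% and 9.21% in WT, so that WT replicate 1 had the lowest share of the 6 libraries.

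The remaining HSP70 genes were low. HSP70T-2 (AT2G32120), a divergent HSP70 with 45.1% of coding bases identical to HSC70-1, had 15.5, 8.30 and 6.47 CPM in paps1-1 and 11.6, 6.96 and 10.2 CPM in WT. Its log2 fold change was 0.09 (SE 0.33; edgeR adjusted p = 0.976), or 0.22 (SE 0.42) in the 4 libraries, and its top and bottom libraries were both paps1-1. HSP70T-1 (AT1G56410, symbol ERD2 in RefSeq) had 7, 2 and 0 reads in paps1-1 and 1, 0 and 0 reads in WT. It did not pass the filter on low counts and was not tested, and a count of 0 allows up to 3 reads, which is 0.152 CPM in paps1-1 replicate 3, and 0.183 and 0.211 CPM in WT replicates 2 and 3.

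HSP90.1 (AT5G52640) is the heat-induced member of the cytosolic HSP90 chaperones, which complete the folding of kinases, receptors and other clients. It had 549.8, 213 and 591 CPM in paps1-1 and 444, 443 and 889.96 CPM in WT. HSP101 (AT1G74310) had 299, 101.5 and 374 CPM in paps1-1 and 285, 246 and 526 CPM in WT. For both genes WT replicate 3 was the highest and paps1-1 replicate 2 the lowest library, and paps1-1 replicates 1 and 3 lay above WT replicates 1 and 2. The log2 fold change was -0.39 (SE 0.40; edgeR adjusted p = 0.859) for HSP90.1 and -0.44 (SE 0.42; edgeR adjusted p = 0.843) for HSP101. Without paps1-1 replicate 2 and WT replicate 3 the values turned positive, at 0.34 (SE 0.30) for HSP90.1 and 0.32 (SE 0.29) for HSP101. There were 54.5, 47.6 and 63.4 HSP101 reads per 100 HSP90.1 reads in paps1-1 and 64.1, 55.6 and 59.1 in WT, which overlapped.

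HOP3 (AT4G12400) is the stress-responsive member of the HOP co-chaperones. It had 78.0, 31.3 and 89.4 CPM in paps1-1 and 127, 125 and 260 CPM in WT. All paps1-1 libraries lay below all WT libraries, a separation in this direction that 7.82% of all genes tested showed, while 6.92% were separated in the other direction and 14.7% in either. The log2 fold change was -1.36 (SE 0.38), with an unadjusted p of 0.00304 and an adjusted p of 0.0963 in edgeR's quasi-likelihood test. DESeq2 gave -1.38 (SE 0.38) with adjusted p = 0.0122, in a test that called 3.38% of all genes. Without paps1-1 replicate 2 and WT replicate 3 the log2 fold change was -0.62 (SE 0.25; edgeR adjusted p = 0.516), and without WT replicate 3 alone it was -0.94 (SE 0.35; edgeR adjusted p = 0.353). The level of pollen tube markers was also highest in WT replicate 3. With the balance of pollen and style markers as a covariate the log2 fold change of HOP3 was -0.95 (SE 0.35; edgeR adjusted p = 0.356). This balance is the mean log2 CPM of pollen markers minus that of style markers. Those means were 10.24 and 0.66 in WT replicate 3, against 9.29 to 9.57 and 0.79 to 0.97 elsewhere. The covariate thus mainly marks WT replicate 3, so this fit is not a separate check beside the one without that library.

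**Figure D2:**
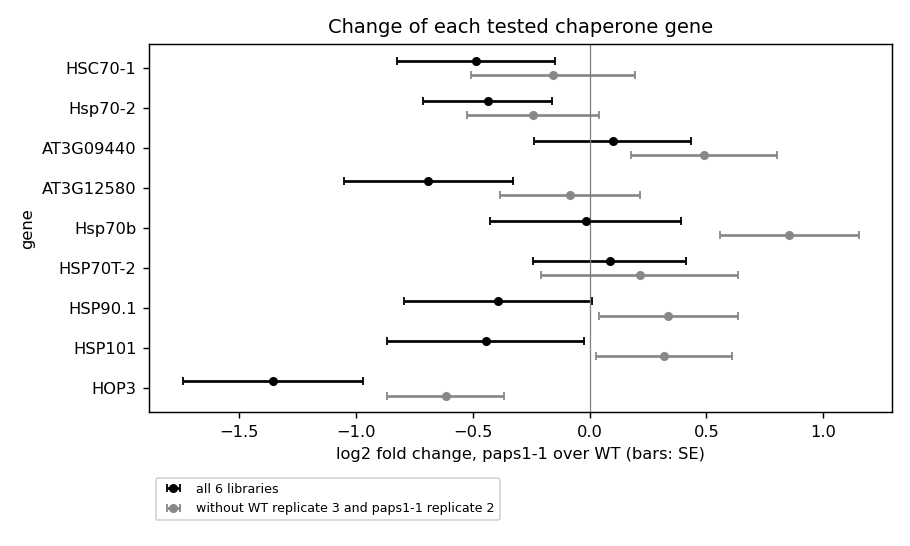
Log2 fold change of paps1-1 over WT for the 9 tested chaperone genes, with bars for 1 standard error; black points use all 6 libraries and grey points leave out WT replicate 3 and paps1-1 replicate 2. HOP3 lies below 0 in both fits, at -1.36 and -0.62, whereas HSP90.1 lies at -0.39 and 0.34.

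HOP3 and HSP90.1 encode partners in the HSP70 to HSP90 relay, and their reads can be set against each other within a library with no scaling between libraries. There were 14.2 (95% interval 13.4 to 15.0), 14.7 (12.2 to 17.44) and 15.1 (14.4 to 15.9) HOP3 reads per 100 HSP90.1 reads in paps1-1 replicates 1 to 3. In WT there were 28.6 (27.3 to 29.9), 28.2 (26.8 to 29.6) and 29.2 (28.1 to 30.3). The libraries that stood apart in level therefore had the same ratio as the others of their genotype, within counting error. The mean was 14.7 ± 0.472 in paps1-1 and 28.7 ± 0.514 in WT (SD, n = 3 each), a quotient of 0.511, with a two-sided exact permutation p = 0.1, the smallest possible. Intervals are exact binomial ones and cover counting error only.

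The pair was picked after its values were seen, so its separation is a description. Of 18121 genes with reads in all libraries, 128 or 0.706%, HOP3 among them, had ratios to HSP90.1 that were lower in every paps1-1 library than in every WT library. In either direction 939 genes or 5.18% were separated, so most of these were higher in paps1-1. Both shares depend on the levels of HSP90.1, the common denominator. A spread of the log2 ratio to HSP90.1 within genotypes at or under that of HOP3 (pooled SD 0.0376) was found for 1 gene (0.00552%), HOP3 itself, beside a difference of 0.97 between paps1-1 and WT in log2 HSP90.1 over HOP3. The picked pair has the narrowest spread of the 36 pairs between tested chaperone genes. Many of the genes searched have few reads and a large counting error. This share therefore describes the pair and does not measure how rare such a spread is. The 147 HOP3 reads of paps1-1 replicate 2 alone carry a counting error of 8.25%, which is more than the spread found between the paps1-1 libraries. Between all 9 tested genes there are 36 pairs, of which 12 had ratios that did not overlap between genotypes, against 15.6% of all pairs of genes with reads in every library. The pairs share genes and are not independent. HOP3 was in 7 of these 12, out of its 8 pairs, which left 5 of the 28 pairs without it, and the smallest p over the 36 pairs was 0.3 after Benjamini-Hochberg adjustment of the exact permutation p-values. The 5 pairs without HOP3 were AT3G09440 with AT3G12580, AT3G09440 with HSP90.1, and Hsp70b with AT3G12580, HSP90.1 and HSP101.

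**Figure D3:**
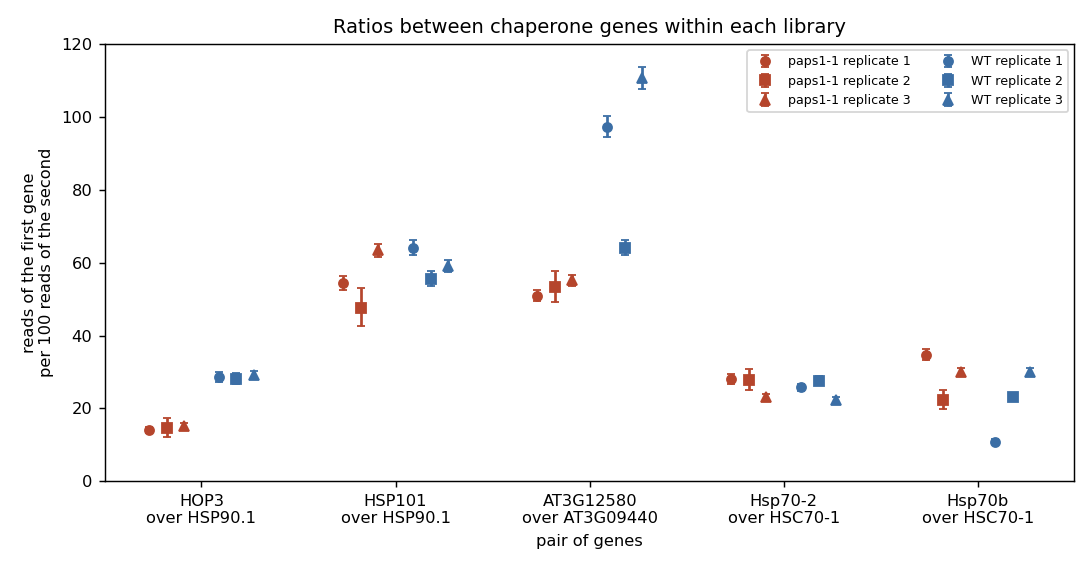
Reads of one chaperone gene per 100 reads of another within each library, for 5 pairs, with paps1-1 in red and WT in blue and bars for the 95% exact binomial interval of counting error. HOP3 over HSP90.1 lies at 14.2 to 15.1 in paps1-1 and at 28.2 to 29.2 in WT, while Hsp70-2 over HSC70-1 overlaps between genotypes.

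Within the HOP family the share of HOP3 was lower in every paps1-1 library. This share rests on the same HOP3 reads as the levels above, so it is not separate support for them. HOP3 took 57.9%, 37.6% and 54.1% of the reads of HOP1, HOP2 and HOP3 in paps1-1 and 64.4%, 70.7% and 85.6% in WT. The mean share was 49.9% ± 10.8 in paps1-1 and 73.6% ± 10.9 in WT (SD, n = 3 each; two-sided exact permutation p = 0.1, the smallest possible). HOP1 and HOP2, named after their values were seen, averaged 14.4 ± 1.90 and 47.1 ± 10.7 CPM in paps1-1 against 13.9 ± 3.54 and 41.4 ± 10.3 CPM in WT, with log2 fold changes of 0.06 and 0.19. For HSP90 the shares overlapped: HSP90.1 took 45.7%, 29.3% and 35.3% of the reads of HSP90.1 to HSP90.4 in paps1-1 and 34.2%, 38.2% and 48.4% in WT.

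Levels of the chaperone genes also varied between libraries of the same genotype. WT replicate 3 was the highest of the 6 libraries for 6 of the 9 tested genes, against 25.9% of all genes, and paps1-1 replicate 2 was the lowest for 8 of the 9, against 16.9% of all genes. The 10 genes together made 2766, 1443 and 3265 CPM in paps1-1 and 2788, 2507 and 4414 CPM in WT, so that paps1-1 replicates 1 and 3 lay within the range of WT. In paps1-1 replicate 2, the library with the fewest gene reads and the most ribosomal RNA, the log2 level was 0.91 below the mean of the 6 libraries when averaged over the 9 genes. The part of depth and of ribosomal RNA in that value was not tested. HSP70T-2 followed another course from the rest: it was highest in paps1-1 replicate 1 and lowest in paps1-1 replicate 3.

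**Figure D4:**
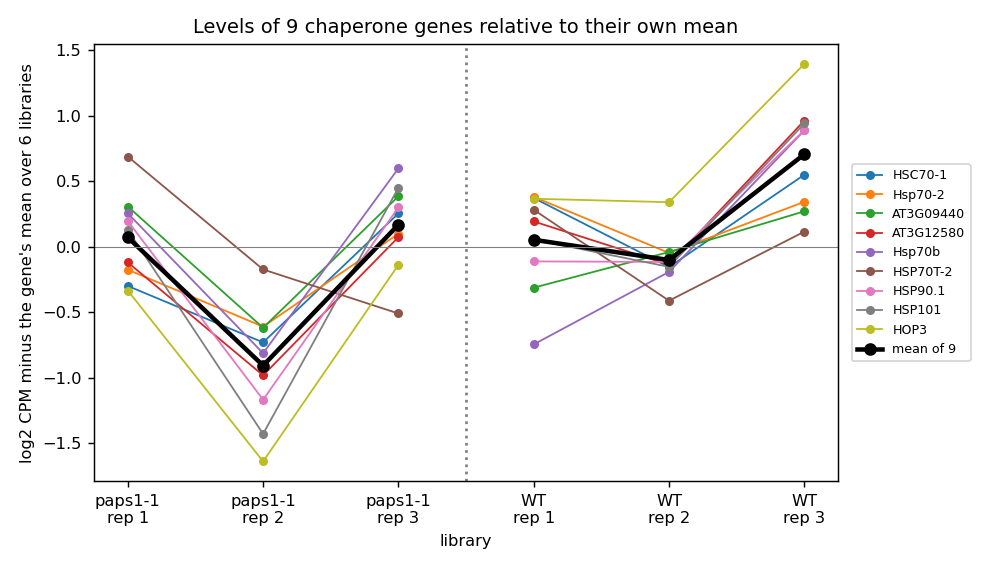
Log2 CPM of each tested chaperone gene minus its own mean over 6 libraries, with paps1-1 libraries left and WT libraries right of the dotted line, and the mean of the 9 genes in black; lines only join the points of a gene, since replicates have no order. The mean lies at -0.91 in paps1-1 replicate 2 and at 0.71 in WT replicate 3, and HOP3 spans the widest range of the 9.

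Per transcript length, HSP90.1 and HSC70-1 had the highest means of the 10 genes in both genotypes. RPKM values (CPM per kilobase of annotated exon) averaged 215 ± 98.5 in paps1-1 and 282 ± 122.6 in WT for HSP90.1, and 196 ± 67.3 in paps1-1 and 274 ± 65.3 in WT for HSC70-1 (SD, n = 3 each). These levels placed HSP90.1 at rank 331 in paps1-1 and 296 in WT among 18297 genes with a known length. AT3G12580 and AT3G09440 came next, at 128 ± 44.1 and 188 ± 63.6 RPKM in paps1-1 against 206 ± 84.5 and 176 ± 35.6 RPKM in WT. HSP101 followed with 76.9 ± 41.9 RPKM in paps1-1 and 105 ± 45.2 RPKM in WT, and Hsp70-2 with 51.6 ± 12.4 RPKM in paps1-1 and 69.97 ± 11.0 RPKM in WT. HOP3 and Hsp70b, measured in the same libraries, had close means in WT, whereas Hsp70b lay above HOP3 in each paps1-1 library, at 63.2, 30.1 and 80.2 RPKM for Hsp70b against 28.6, 11.5 and 32.8 RPKM for HOP3. HOP3 had 24.3 ± 11.3 RPKM in paps1-1 and 62.6 ± 28.4 RPKM in WT, which is rank 2602 in paps1-1 and rank 1276 in WT, while Hsp70b had 57.8 ± 25.5 RPKM in paps1-1 and 58.6 ± 34.98 RPKM in WT. HSP70T-2 had 4.62 ± 2.18 RPKM in paps1-1 and 4.39 ± 1.09 RPKM in WT. Among WT libraries each gene overlapped its neighbour in this order, except that Hsp70b lay above HSP70T-2 and HSP70T-2 above HSP70T-1. Within single libraries HSC70-1 exceeded AT3G12580, and AT3G09440 exceeded HSP101, in 6 of 6, but HSP90.1 exceeded HSC70-1 in 4 of 6. The order of the means was not kept in each paps1-1 library. AT3G09440 lay above HSC70-1 in replicate 1, at 219 against 183 RPKM, and above HSP90.1 in replicate 2, at 115 against 101.5 RPKM. The annotated models of HSP90.1 and HSP70T-1 hold coding bases only, so their lengths leave out any untranslated bases and their per-length levels are not on an equal footing with the rest.

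The genes that work with these chaperones were taken as 8 lists with 77 genes, of which 74 were tested. Only 2 of the 74 (2.7%) passed the test, near the 2.34% of all genes called in either direction. Both were lower in paps1-1, as were 1.18% of all genes. The median log2 fold change of the 74 was -0.11, with 31 positive and 43 negative values. Without paps1-1 replicate 2 and WT replicate 3 there were 41 positive and 33 negative values, with a median of 0.05. Without WT replicate 3, or without paps1-1 replicate 2, neither passed.

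The other cytosolic and organellar HSP90 genes together with HOP1 and HOP2 had 7 positive and 1 negative value and none passed (8 tested; median 0.16). The lowest p belonged to HSP90.5, the HSP90 of the chloroplast, with 119 ± 35.1 CPM in paps1-1 and 86.0 ± 21.9 CPM in WT, and the next to HSP90.3, a cytosolic HSP90, with 363 ± 152 CPM in paps1-1 and 482 ± 101.3 CPM in WT. Among 9 organellar HSP70 and CLPB genes (6 positive, 3 negative; median 0.04), BIP3 passed the test. The 3 negative values were those of BIP1, BIP2 and BIP3. In each, all paps1-1 libraries lay below all WT libraries, as in 7.82% of all genes. BIP1 and BIP2, named after their values were seen, had log2 fold changes of -0.90 (SE 0.31; edgeR adjusted p = 0.218) and -1.07 (SE 0.34; edgeR adjusted p = 0.149). WT replicate 3 was the highest library for both. BIP3 is an HSP70 of the endoplasmic reticulum induced by unfolded proteins there, and it had 3.92, 2.34 and 4.196 CPM in paps1-1 and 4.54, 23.2 and 62.4 CPM in WT. The WT libraries spread over a wide range and the lowest of them was close to paps1-1. Its log2 fold change was -3.03 (SE 0.63; edgeR adjusted p = 0.0145), and without WT replicate 3 it was -1.94 (SE 0.53; edgeR adjusted p = 0.122).

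The 4 HSP110-type genes, whose products act as nucleotide exchange factors of HSP70, were all negative with a median of -0.56, and none passed. AT1G11660 had 23.0 ± 1.81 CPM in paps1-1 and 36.5 ± 20.6 CPM in WT, and AT4G16660 had 52.6 ± 9.44 CPM in paps1-1 and 78.0 ± 39.6 CPM in WT. In both, WT replicate 3 held the highest value. With all libraries the log2 fold change was -0.66 for AT1G11660 and -0.57 for AT4G16660, against -0.13 and -0.11 without WT replicate 3, where the list had 1 positive and 3 negative values and a median of -0.12. Among 9 J-domain genes (2 positive, 7 negative; median -0.25), AT5G25530, annotated as a DNAJ heat shock family protein, fell. It had 27.7, 22.6 and 22.04 CPM in paps1-1 and 52.7, 40.2 and 51.2 CPM in WT, so every paps1-1 library lay below every WT library. Its log2 fold change was -0.99 (SE 0.24; edgeR adjusted p = 0.0383), and without both doubted libraries it was -0.93 (SE 0.26; edgeR adjusted p = 0.203).

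Of the BAG and FES1 exchange factors 9 of 10 were tested, with 4 positive and 5 negative values, a median of -0.36 and no call. BAG6, a calmodulin-binding BAG protein induced by heat, had 69.3, 44.0 and 201 CPM in paps1-1 and 186, 100.7 and 432 CPM in WT, with a log2 fold change of -1.18 (SE 0.53; edgeR adjusted p = 0.441). The value of BAG6 was -0.47 without WT replicate 3, -0.11 without that library and paps1-1 replicate 2, and -2.07 (edgeR adjusted p = 0.0471) without paps1-1 replicate 3, where it passed the test. BAG5 was near the limit of detection, at 1.09 ± 0.228 CPM in paps1-1 and 1.92 ± 1.26 CPM in WT. The 12 HSP90 co-chaperones had 5 positive and 7 negative values, a median of -0.13 and no call. ROF2, a heat-induced FKBP-type immunophilin, had 210.2, 114 and 194 CPM in paps1-1 and 170.1, 288 and 728 CPM in WT, and WT replicate 1 lay below paps1-1 replicates 1 and 3. Its log2 fold change was -1.19 (SE 0.44; edgeR adjusted p = 0.262), with -1.56 (edgeR adjusted p = 0.0499) without WT replicate 1 and -0.43 without WT replicate 3. AT3G12050, annotated as an Aha1 domain protein like the activator of HSP90 ATPase, had 35.4 ± 13.2 CPM in paps1-1 and 61.8 ± 13.9 CPM in WT.

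The 13 small heat shock protein genes, whose products hold unfolded proteins until HSP70 and HSP101 act, had 3 positive and 10 negative values, a median of -0.22 and no call. Without paps1-1 replicate 2 and WT replicate 3 the same list had 12 positive values and 1 negative value, a median of 0.33 and no call. AT1G59860 had 70.3, 22.3 and 53.9 CPM in paps1-1 and 48.5, 63.4 and 146 CPM in WT, and ATHSP22.0, an endoplasmic reticulum member, had 23.8 ± 9.99 CPM in paps1-1 and 33.8 ± 20.1 CPM in WT. Of 12 heat shock factor genes with the co-activator MBF1C, 10 were tested, with 4 positive and 6 negative values, a median of -0.11 and no call. HSFB2B, a class B repressor, had 12.3, 4.89 and 14.5 CPM in paps1-1 and 18.5, 13.3 and 43.9 CPM in WT, with a log2 fold change of -1.21 (SE 0.42; edgeR adjusted p = 0.211). It was -0.57 without WT replicate 3 and -0.28 without that library and paps1-1 replicate 2. HSFA1D, a master activator of the heat response, had 12.2, 11.5 and 11.6 CPM in paps1-1 and 16.3, 14.1 and 26.6 CPM in WT, groups that did not overlap, as was so in this direction for 7.82% of all genes. The log2 fold change was -0.69 (SE 0.27; edgeR adjusted p = 0.329), and -0.40 without WT replicate 3.

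**Figure D5:**
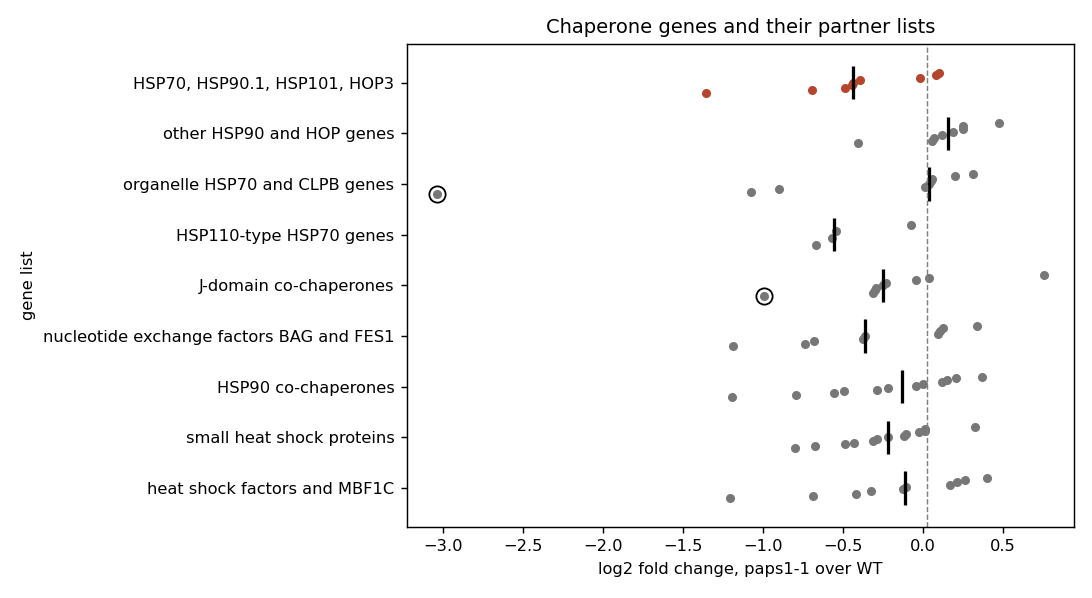
Log2 fold change of paps1-1 over WT for each tested gene of the chaperone set, in red, and of 8 lists of partner genes, in grey, with a vertical bar for the median of each list and a dashed line for the median of all genes at 0.03. The circled points are BIP3 at -3.03 and AT5G25530 at -0.99, the 2 that passed the test.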

How the data were processed

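RNA came from pollen tube and style complexes, 3 paps1-1 and 3 WT libraries. Per the labels' protocols, the PicoPure kit and DNase digestion were used for the RNA and an Illumina HiSeq2000 for sequencing of mRNA libraries. STAR and TAIR10 were used, per the submitters' processing notes. The sources used here do not give the version, settings, annotation or read length. The deposited values are counts of whole reads per gene, 1 table per library, with no normalization that the values show. The 2 strand-wise totals were within a ratio of 1.02 to 1.07 of each other, so strand was ignored. Entries naming no gene entered neither library sizes nor tests: as a share of all reads, multi-mapping ones made 7.28% to 74.6%, unmapped ones 1.32% to 4.36%, those outside genes 2.71% to 9.93%, and ambiguous ones 0.228% to 1.65%.

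Genes were kept by filterByExpr (minimum count 10) of edgeR 4.0.16 in R 4.3.3, scaled by TMM and tested with glmQLFit and glmQLFTest, two-sided, without a block, over all 18317 genes; calls needed an adjusted p under 0.05. The fitted common coefficient of biological variation was 0.263. On simulated paps1-1 against WT data with 18056 genes, the test called 28% of genes changed 2-fold and 100% of those changed 4-fold, and 5 unchanged genes. Every simulated gene had the common coefficient, and genes of low level were not changed. In the data the coefficient of variation of CPM ranged among tested members from 15.7% (Hsp70-2, WT) to 59.6% (Hsp70b, WT). For HOP3 it was 46.5% in paps1-1 and 45.3% in WT. The shares called may be too high for the more variable members. Alternatives used DESeq2 1.42.0, limma 3.58.1 (voom), other scalings and filters, 1 strand, left-out libraries, a block and a covariate. No replicates within a genotype agreed within sampling noise (chi-square per degree of freedom at least 52.3).

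Members and lists were chosen with earlier results of these data known. The text names all members, of each partner list every called gene and otherwise the 2 of smallest p, and the 6 genes nearest to the members' mean profile; others are marked where named. Names, lengths and sequences came from RefSeq TAIR10.1, which matched 32835 of 33323 identifiers and left 488; its coordinates are given for sequences only, since the count tables, made on TAIR10, carry none. To see where multi-mapping could remove reads, words of 50 bases from each member were searched in the genome: 7 members had none elsewhere, AT3G09440 had 0.221%, HSP70T-1 0.388% and HSP101 0.185%. Proteins are not shown here.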

Additional observations from a re-analysis of the deposited data

How the results depend on the processing

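Of the chaperone genes, 1 was called under DESeq2, without a filter on low counts and with the replicate block, HOP3 each time, and 0 under the other alternatives run. The fits that called HOP3 called 620 of 18317, 1042 of 26229 and 482 of 18317 genes, in that order. HOP3 stayed negative in all 18, between -1.63 and -0.62, with adjusted p from 4.30e-04 to 0.516. With the mean level of the other 8 members as a covariate, chosen after seeing the data, it was -0.95 (SE 0.28; edgeR adjusted p = 0.146), and -0.75 (adjusted p = 0.506) with 4 libraries. Called partner genes numbered 1 under limma-voom, 6 without a filter, 1 with a filter of 5 CPM in 3 libraries, 0 without both WT replicate 3 and paps1-1 replicate 2, 0 with the pollen and style covariate, and 0 to 3 with single libraries left out. Over all genes 387 of 18317 were called under limma-voom, 1042 of 26229 without a filter and 216 of 11367 with 5 CPM. Calls numbered 237 of 18491 without both libraries and 346 of 18317 with the covariate. With single libraries left out they numbered 333 to 456, out of 18434 to 18870 genes tested. Signs turned, with ranges for single libraries left out, for AT3G09440 (-0.00118 under limma-voom, -0.0767 to 0.33), Hsp70b (0.00378 with 5 CPM, 0.0336 on 1 strand, 0.0248 with the block, 0.49 with the covariate, 0.86 without both, -0.33 to 0.55), HSP70T-2 (-0.40 to 0.34), HSP90.1 (0.34 without both, -0.64 to -0.000892), HSP101 (0.32, -0.81 to -0.0638), AT1G59860 (0.13, -1.15 to -0.21) and ATHSP22.0 (0.35, 0.0709 with the covariate, -0.81 to 0.10). The cause was not tested. BIP3 lost its call in 5 of 15 alternatives and AT5G25530 in 8 of 16. Calls were gained by BAG6 (adjusted p = 0.00587 without a filter, 0.0293 with the replicate block), HSFB2B (7.28e-04 and 0.0320) and ROF2 (0.00888 without a filter).

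Replicate numbers gave no sign of a pairing: deviations of same-numbered libraries correlated at -0.39, 0.15 and -0.22 over 12393 genes, against -0.18 to 0.46 for different numbers. With 3 libraries per genotype these values cannot decide whether the samples were paired. With the number as a block, 1 chaperone gene was called (HOP3, -1.41; edgeR adjusted p = 0.0121), 3 partner genes and 482 of 18317 genes in all.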

Other observations

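The 6 genes outside the set whose profile over the 6 libraries lay nearest to the mean profile of the 9 tested chaperone genes were AT3G54366, CIB22, AT1G79510, AT2G38820, AT1G02380 and ETP1, by root mean square distance of centred log2 CPM. The distances were 0.092 for AT3G54366, an RNA gene, and 0.093 for CIB22, annotated as an LYR family protein of Fe/S cluster biogenesis. CIB22 had 14.4, 7.87 and 16.4 CPM in paps1-1 and 16.5, 15.4 and 23.51 CPM in WT, with paps1-1 replicate 2 lowest and WT replicate 3 highest as in most of the set. Without paps1-1 replicate 2, and likewise without WT replicate 3, 0 of the 6 were again among the nearest 6. Among the members themselves, AT3G12580 lay nearest to that mean, at 0.15, and HSP70T-2 farthest, at 0.56.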
